A study of Caenorhabditis elegans with 3 samples.

Results

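The transcript profile of wild-type Caenorhabditis elegans at the fourth larval stage (L4) was read from the FPKM of the N2 library, where FPKM is a fragment number scaled to transcript length and to library size. Genes entered the profile when their status was OK in either deposited table and their locus spanned at least 300 nt, which kept 16914 of the 45343 rows. Whole animals of N2, the standard laboratory strain, carrying no mutation per the labels, were grown from eggs that hypochlorite had freed from gravid adults. Total RNA was treated with DNase and made into an Illumina messenger RNA library. The study set this library against ahr-1(ia03) and ahr-1(ju145) mutants, whose FPKM were not used here. Each status belongs to a comparison of wild type with a mutant, so the choice of kept rows does not rest on the wild-type library alone. Of the kept rows, 320 were at 0 in wild type.

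An L4 animal is in its last larval stage. Its epidermis secretes the collagens of the adult cuticle, its muscles and intestine are working, and the germ line of a hermaphrodite makes sperm before it turns to oocytes. Yolk proteins are made in the intestine of hermaphrodites around and after the last moult, as food for oocytes. The labels give neither sex nor hours of growth.

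There was 1 wild-type library, so no value has a replicate error, and the order of genes with close values cannot be told. FPKM holds no fragment counts, so the depth is unknown and no counting interval is given. In RNA from whole animals, fewer cells of a type and less RNA per cell cannot be told apart. Each of the 45343 rows had the same wild-type value in either table.

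The kept rows summed to 1536770 FPKM, with a median of 11.98 and quartiles of 2.43 and 36.4. Of the kept rows, 16594 were above 0 and 14248 (84.2%) were at FPKM of at least 1. There were 1737 at 100 or more and 231 at 1000 or more, and those 231 held 55.8% of the summed FPKM. The library was concentrated in few rows: 6 held 10% of the sum, 33 held 25%, 163 held 50%, 918 held 75% and 3493 held 90%. Among protein-coding rows alone, 194 held 50%.

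**Figure D1:**
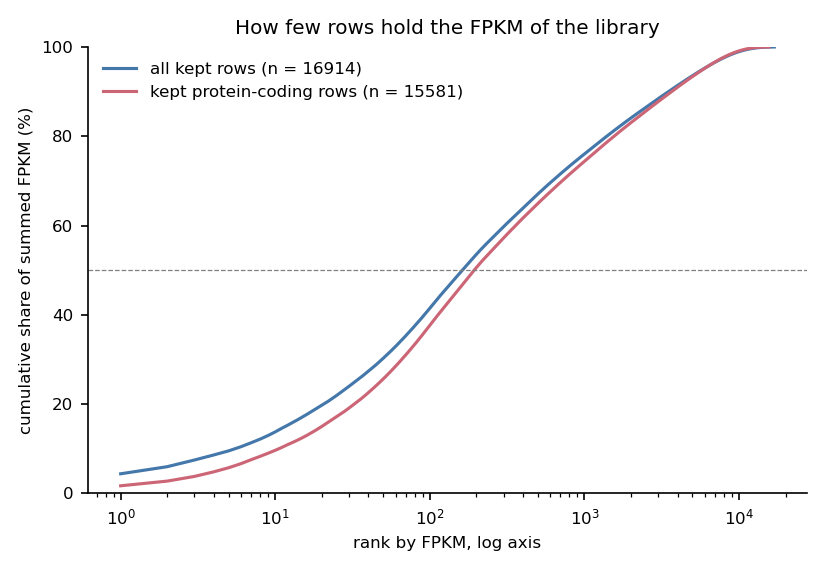
Cumulative share of summed FPKM (percent) against rank by FPKM (log axis) in the wild-type N2 library, for all kept rows and for kept protein-coding rows. The curve of all kept rows passes 50% at rank 163 and that of protein-coding rows at rank 194.

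The 30 highest rows held 23.99% of the sum. Of these, 16 were cytoplasmic ribosomal proteins, 7 were short noncoding RNAs, 4 were protein-coding genes known only by a sequence name, and the other three were dct-16, far-2 and the mitochondrial COX3. The highest kept protein-coding gene was rpl-38, a large-subunit ribosomal protein, at FPKM 22995. It was followed among kept coding genes by rpl-41.2 at 14193, rps-28 at 14171, rpl-43 at 13880.0 and dct-16 at 12516. Of these, rpl-38, rpl-41.2, rps-28 and rpl-43 have only 252 to 296 nt of exon, where the length correction of FPKM can be steep. K08D8.11, a coding row of 105 nt that the span rule left out, was at 58839. The genes W01D2.1 (FPKM 10108), Y119D3B.21 (9359), Y82E9BR.3 (8556) and C37A2.7 (8453), which neither the files nor the reference give a symbol, came in the same range. Among the 100 highest rows, ribosomal proteins took 60 places, cuticle collagens 7 and mitochondrially encoded proteins 5.

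The highest row of all was F56D12.10, annotated as a noncoding RNA of 124 nt, at FPKM 67469. It lies inside vig-1, a gene for a protein associated with RNA interference complexes, which was at FPKM 1415. T04C12.30 and T04C12.26, both 150 nt, were at 24422 and 17379 and lie inside the actin genes act-1 (2039) and act-3 (1634). F59D8.3 (176 nt, FPKM 12425) and T27A10.8 (188 nt, 9261) overlap the vitellogenin genes vit-4 (679) and vit-3 (657). F31C3.13 (150 nt, 10488) lies inside the ribosomal RNA gene rrn-1.2 (701), and T04C12.17 (170 nt, 5892) inside act-3.

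In all, 24 noncoding rows with under 300 nt of exon were at FPKM of at least 500 and together held 10.4% of the sum. A longer row shared the locus for 23 of them, and the short row was the higher of the pair in 22. FPKM divides by length, and when each value was multiplied by exon length the order turned in 16 of those 22 pairs and the short row was still the higher in 6. The pairs are not all separate loci. Many are ZK973 rows inside the single gene anc-1 (19.3), 7 of which repeat a value of another, and all pairs with anc-1 are among those that turned. The gene act-3 is likewise the longer row of both T04C12.26 and T04C12.17. For F56D12.10 the product was 8366 against 2491 for vig-1 (FPKM × kb), while for F59D8.3 it was 2187 against 3351 for vit-4 and for T27A10.8 it was 1741 against 3235 for vit-3. For a row shorter than a sequenced fragment this product is not proportional to fragments, so it does not settle which of a pair is the higher. The locus span used to keep rows is that of the merged locus, so it let these short rows in. How much signal each short row shares with its longer neighbour was not tested. They belong to no family, and leaving noncoding rows out moved no family share by more than 1.5 times.

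**Figure D2:**
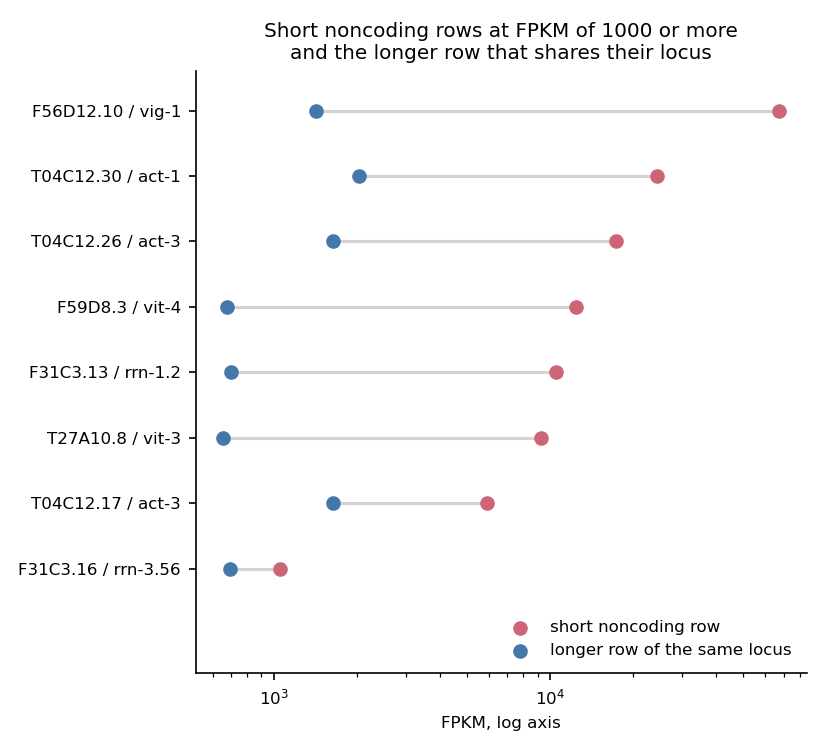
FPKM (log axis) of the 8 short noncoding rows at 1000 or more (red) and of the longer row at the same locus (blue), joined by a line; each name pair gives the short row first. In each pair the short row lies to the right, from F56D12.10 at 67469 against vig-1 at 1415 to F31C3.16 at 1051 against rrn-3.56 at 691.

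Genes were next grouped into 62 families by their names. A gene without a symbol can be missing from the family of its protein, and the 4 such coding genes among the 30 highest rows are in no family. Family counts, sums and highest members may therefore leave such genes out. The families took 3083 kept rows and 51.6% of the summed FPKM. Counts of members at FPKM of at least 1 are to be read against the 84.2% of all kept rows at that level. Few rows at 0 were kept: 18698 of all 45343 rows were above 0, against 16594 of the 16914 kept. Shares of kept members are therefore shares of rows already chosen by status. Over coding rows of any status with at least 300 nt of exon, 71.6% were at 1 or more. Grouped by role, translation held 24.5% of the sum, the cuticle 5.66%, respiration 4.55%, sperm 3.14%, innate immunity 2.29%, lipid handling 1.78% and muscle 1.36%. Families for the neuron held 0.117% and transcription factors 0.160%.

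**Figure D3:**
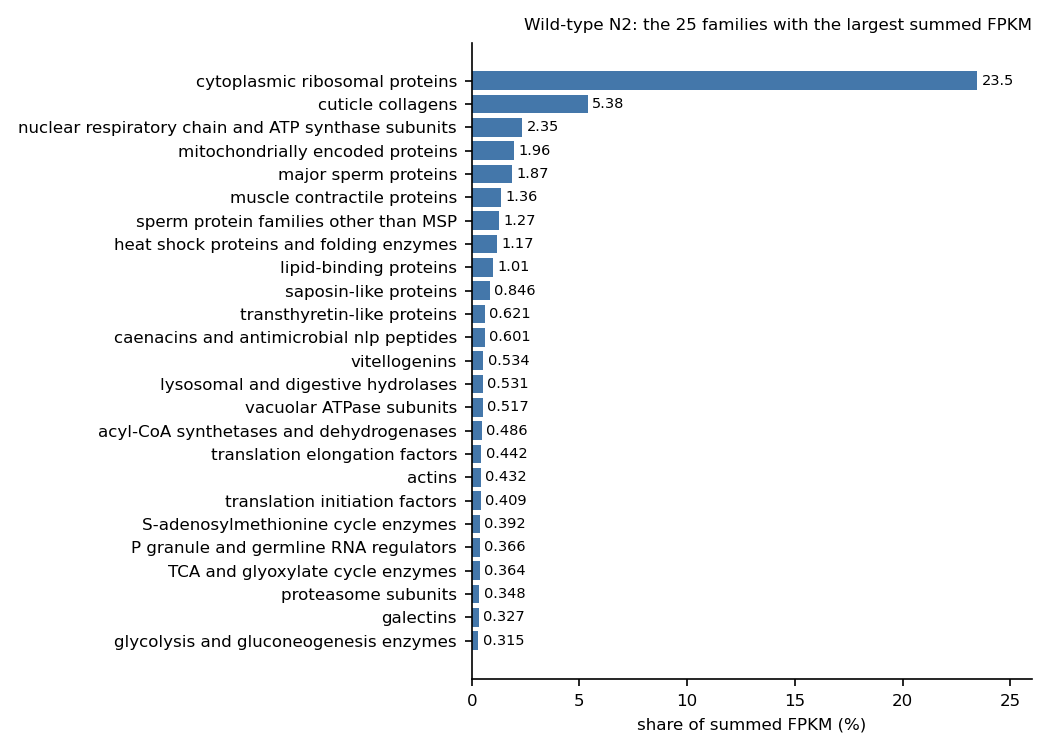
Share of the summed FPKM (percent) held by each of the 25 families with the largest sums in the wild-type N2 library. Ribosomal proteins stand at 23.5%, cuticle collagens at 5.38% and no other family above 2.35%.

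Ribosomal proteins of the cytoplasm, the protein part of the translating machine, held 23.5% of the sum with 75 kept members of 83. Every kept member was at FPKM of at least 1, as were 84.2% of all kept rows, and 71 of the 75 were at 1000 or more. The median was 3933 and the quartiles were 3076 and 5111, a narrow spread for so large a family. Large-subunit proteins (43 kept, median 3861) and small-subunit proteins (27 kept, median 4139) had similar levels, and the 3 acidic stalk proteins ranged from 3200 for rla-0 to 4233 for rla-1. The 3 highest were rpl-38, rpl-41.2 and rps-28. The low end was set by rpl-42 at 18.03 and rpl-24.2 at 196, both far under the first quartile. Members were taken by name, and whether each is part of the ribosome was not tested. The 8 members that were not kept all had status FAIL in both tables and summed to 38541 FPKM, with rpl-13 the highest at 10192. Across the 75 genes, the shorter the transcript the higher the FPKM tended to be (Spearman's rho -0.49, a description over genes of 1 library).

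Elongation factors, which carry tRNAs to the ribosome and move it along the message, showed what the status rule leaves out. The 8 kept members summed to 0.442% of the total, led by eef-2 (2165), eef-1G (1537) and eef-1B.1 (1224). The main tRNA carrier, eef-1A.1, was at FPKM 9329.7 but had status FAIL in both tables. With all rows whatever their status, the family's share was 0.986%. Initiation factors (33 kept, median 154, led by iff-2 at 890.5) and tRNA synthetases (29 kept, median 83.4, led by kars-1 at 343) stood lower, and all of their kept members were above 1. The initiation factor iff-1 was at 2174 but had status FAIL and was not kept. Initiation factors held 0.409% of the sum, or 0.664% over coding rows of any status with at least 300 nt of exon.

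Cuticle collagens, the structural proteins of the worm's exoskeleton, came second with 5.38% of the sum. Of 180 in the table, 148 were kept, and 30 were at 1000 or more. At FPKM of at least 1 were 132 of the kept members (89.2%), against 84.2% of all kept rows, and 137 of all 180. Unlike the ribosomal proteins they spread widely, with quartiles of 11.9 and 673 around a median of 151, and 15 members held 50% of the family's sum. The highest were col-124 (5121), col-139 (3578) and col-140 (3283), while col-56 was listed at 0. The 18 kept collagens named for their effect on body shape, such as dpy-5 (531), held 3.60% of the family's FPKM with a median of 114. The other 130, with col names, had a median of 166. At 0.209, dpy-14 was the lowest of the body-shape collagens.

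Stage markers were set beside the L4 label. In the list of collagens and regulators known from late L4 and adult cuticle, all 12 genes were above 10, with a median of 289. Of all kept rows, 53.5% were at 10 or more. The 3 highest were col-19 (1806), col-7 (940.4) and col-62 (825), and the lowest were rol-6 (88.5), bli-1 (42.8) and lin-29 (13.1), the zinc-finger factor that drives the larva-to-adult switch of the epidermis. Genes that mark the early embryo were low, with 7 of 15 at 0, among them end-1, med-1, med-2 and tbx-35, and a median of 0.0152. The highest of that list were elt-7 (12.2), nos-2 (10.9) and pha-4 (5.17), of which elt-7 and pha-4 also stand in the lists for intestine and pharynx. In the list for dauer, the arrested larva of poor conditions, with a median of 3.17, the collagen gene col-2 and the cuticlin gene cut-1 were at 0 and col-40 was at 0.0291. Its high members were gpd-3 (584), gpd-2 (483) and lea-1 (92.9), and gpd-2 and gpd-3 are glycolytic genes used at other stages too. How the ages of the animals were spread within L4 was not tested.

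The hypodermis list had a median of 66.5, from col-93 (2913), col-119 (2756) and col-12 (1533) down to lin-26 (27.8), fbn-1 (9.56) and elt-1 (7.63). Cuticle collagens are 10 of its 20 genes, with a median of 427, and the other 10 had a median of 35.02, with semo-1 the highest at 108.8. Hedgehog-related and patched-related proteins, a family expanded in nematodes and used in moulting, had a median of 7.04, and 59 of 74 kept members (79.7%) were at 1 or more, against 84.2% of all kept rows. Within it, the secreted members held 84.6% of the family's FPKM, led by grd-5 (455), grl-21 (239) and grd-3 (167), and the membrane proteins reached 63.3 at ptc-1. Moulting proteases and their inhibitors had a median of 7.02, led by cpi-1 (353), cpz-1 (285) and cpi-2 (234). Cuticlins and ZP-domain proteins held 0.0299% of the sum, and cut-2 alone (255) was more than 50% of that. Seam cells, the lateral stem-like cells of the epidermis, had a marker median of 5.18, with grd-3 and grd-10 (140.3) high and rnt-1 (0.82) and ceh-16 (0.302) low.

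**Figure D4:**
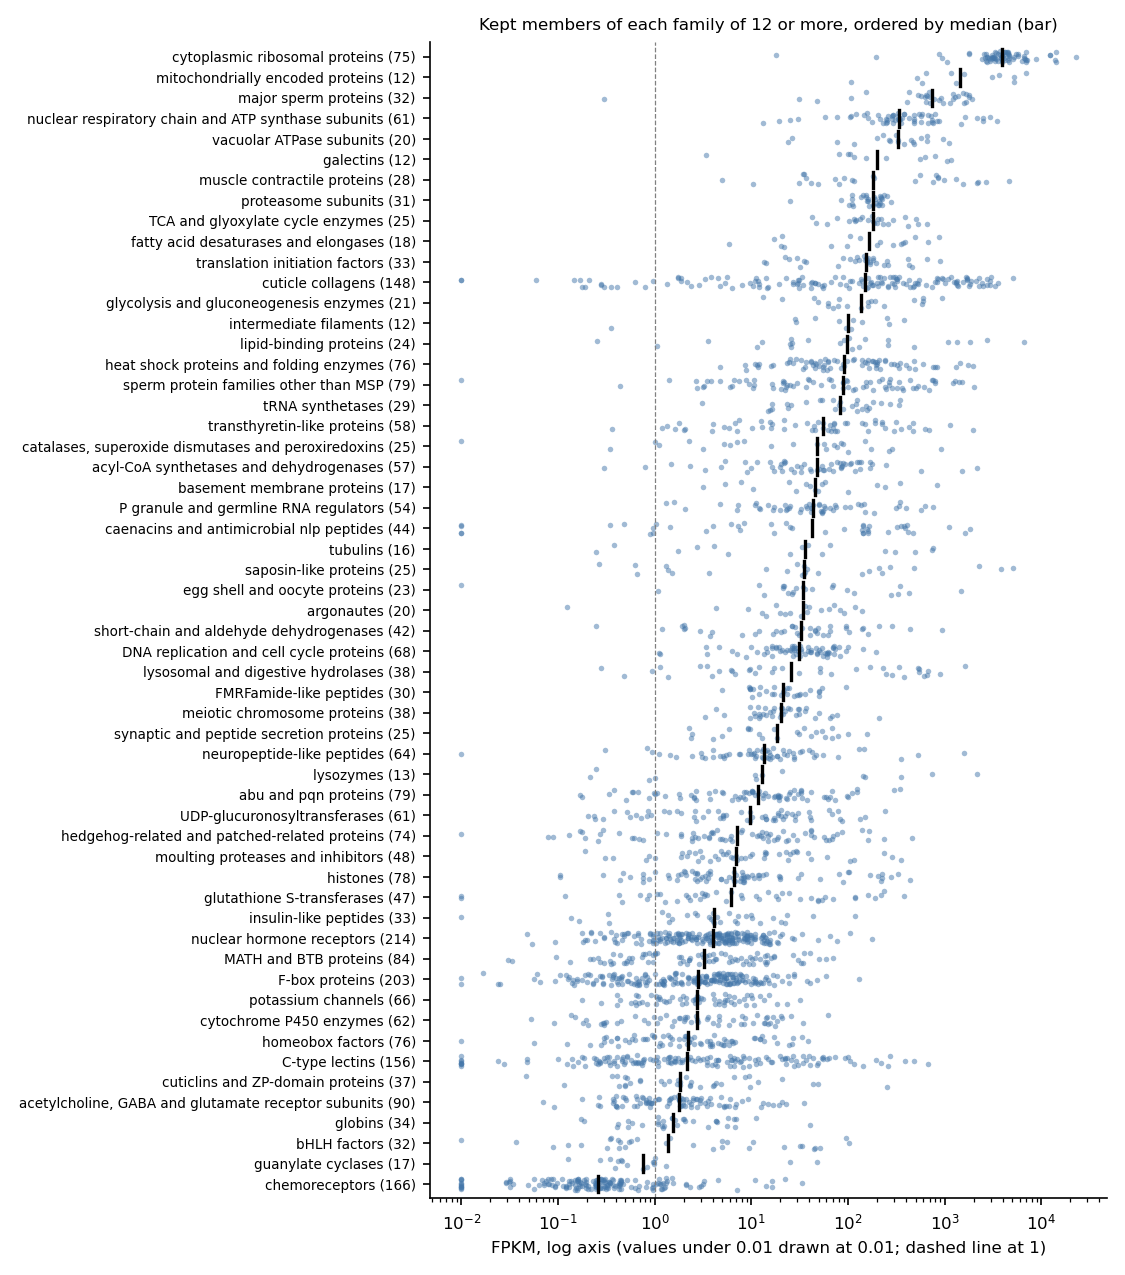
FPKM of each kept member (points, log axis) in families of 12 or more kept members, ordered by their median (black bar); the number of kept members follows each name. Ribosomal proteins (median 3933), mitochondrially encoded proteins (1449) and major sperm proteins (743) stand at the top, and chemoreceptors (0.262) at the bottom.

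Respiration held 4.55% of the sum, divided between the genomes of the nucleus and of the mitochondrion. The 12 proteins encoded in mitochondrial DNA held 1.96%. Cytochrome c oxidase subunits were high, with COX3 at 6986, COX2 at 3649 and COX1 at 3061. The ATP synthase subunit ATP6 was at 5262 and cytochrome b, CYTB, at 5223. Subunits of NADH dehydrogenase were lower and uneven: ND1 was at 1589, ND6 at 1309.6, ND3 at 1163, ND4L at 638, ND5 at 585, ND4 at 524 and ND2 at 107. The level of COX3 was thus 65.1 times that of ND2, although both are read from the same small genome.

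Nuclear genes for the same chain were 61 kept of 67, all at 1 or more, with a median of 341 and 2.35% of the sum. Of the genes grouped here by name, the highest were hpo-18 (3492), a subunit of the ATP synthase, ucr-11 (2951), a subunit of complex III, and cyc-2.1 (2488), cytochrome c. By complex, the 30 kept genes of complex I had a median of 302, those of cytochrome c oxidase 161 and those of the ATP synthase 644. Complex I ran from nduf-2.2 at 77.3 to ndub-3 at 764. Of the adenine nucleotide translocases, which exchange ADP for ATP across the inner membrane, ant-1.1 was at 3558, ant-1.3 at 122.6 and ant-1.4 at 94.7. Enzymes of the TCA and glyoxylate cycles (25 kept, median 181, led by cts-1 at 662) and of glycolysis and gluconeogenesis (21 kept, median 136, led by aldo-2 at 936) had every kept member above 1.

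Muscle contractile proteins held 1.36% of the sum, and all 28 genes were kept and above 1. Thin-filament regulators, the troponins and tropomyosin, held 50.7% of the family's FPKM. They were led by pat-10 (4611), a troponin C, and unc-27 (2153), a troponin I, with lev-11, tropomyosin, at 1565. The 4 myosin light chains had a median of 1767, led by mlc-3 (2705) and mlc-2 (2219). Of the 5 myosin heavy chains, unc-54, the main one of body wall muscle, was at 977 and the other four lay far below it: myo-3 at 81.0, myo-2 at 36.7, myo-1 at 34.9 and myo-5 at 10.4. The giant proteins of the titin kind had the lowest median of these 4 subgroups, 32.6 against 36.7 for the heavy chains, with unc-89 at 41.7, ketn-1 at 34.4, unc-22 at 30.9 and ttn-1 at 4.93. Across the 28 genes, rho between FPKM and exon length was -0.62, and by exon-weighted FPKM the family's share was 2.38%. The body wall muscle list had the highest median of all tissue lists, 291, and its lowest member was the muscle-fate factor hlh-1 at 5.56. The pharyngeal muscle and gland list stood at a median of 8.85, from tni-4 (114.6), tnt-4 (109.8) and tnc-2 (48.5) to ceh-22 (0.976), phat-1 (0.875) and hlh-6 (0.351).

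Of the actins, act-1 was at 2039, act-4 at 1849, act-3 at 1634, act-5 at 1335 and act-2 at 1110.3. The intestinal actin act-5 had status FAIL in both tables, so the 4 others made the family's 0.432%. Near-identical actin genes can share reads, and act-1, act-3 and act-4 also share their loci with other rows, so the split between them is uncertain. Tubulins ranged from tbb-2 (766), tba-2 (749) and tbb-1 (497) to tba-6 (0.248). Of the touch-neuron tubulins, mec-12 was at 54.1 and mec-7 at 38.2.

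Major sperm proteins (MSP), the small cytoskeletal proteins that drive the crawling of nematode sperm, held 1.87% of the sum, or 0.311% with a locus span of at least 500 nt and 0.804% weighted by exon length. Of 35 genes, 32 were kept and 31 of these (96.9%) were at 1 or more, against 84.2% of all kept rows. There were 12 at 1000 or more, and the median was 743. The highest were msp-59 (1924), msp-19 (1799) and msp-51 (1776), and the lowest was msp-32 at 0.297. An MSP outside the kept rows, msp-52, was at 2448. These genes are near-identical copies, so their individual values are uncertain and the family's sum is the sounder figure. All 32 kept members lie on chromosomes II and IV, 14 and 18.

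Other sperm proteins added 1.27%. With a locus span of at least 500 nt that share was 0.347%, weighted by exon length 0.599%, and over coding rows of any status with at least 300 nt of exon 0.792%. The nspd genes, short genes of nematode sperm, had a median of 644 over 10 kept members and made 42.3% of the family's FPKM, led by nspd-2 (1996) and nspd-3 (1501). The msd and msrp genes had a median of 373, led by msrp-2 (1398). By contrast the spe and fer genes, defined by mutants whose sperm fail in development or fertilization, had a median of 10.7, with spe-18 the highest at 119.1. The sperm marker list had a median of 89.3, from msp-10 (702), msp-78 (662) and msp-3 (649) to spe-38 (6.37), spe-9 (4.71) and spe-42 (2.67). None of the 79 kept genes of this family lies on the X chromosome, nor do any of the 32 kept MSP genes, where 14.5% of all kept protein-coding rows do.

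Markers of the oocyte were present alongside those of sperm. The oocyte and eggshell list had a median of 72.9, with perm-2 (425), perm-4 (343) and cpg-2 (278) on top and cav-1 (0.522) lowest. The yolk receptor rme-2 was at 70.1 and the maturation factors oma-1 and oma-2 at 53.9 and 41.3. In the family of eggshell and oocyte proteins, cpg-9 stood apart at 1488. In the list for the mitotic and meiotic germ line, all 25 genes were above 10, where 53.5% of all kept rows were at 10 or more. Its median was 50.2, from cgh-1 (585), car-1 (399.9) and glh-1 (341) to mes-4 (16.2), fbf-2 (14.8) and fbf-1 (12.2). Of the P granule and germline RNA regulators, the Y-box proteins cey-2 (764), cey-1 (626) and cey-4 (570.5) were highest. Meiotic chromosome proteins had a median of 20.1, and all 38 were above 1, led by him-8 (209), which brings the X chromosomes together for pairing. Among argonautes, which carry small RNAs, wago-1 (141), csr-1 (118.7) and prg-1 (91.6) led. The replication and cell cycle genes had a median of 31.1, and all 68 were above 1.

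Vitellogenins, the yolk precursors, held 0.534% of the sum with all 6 genes kept. The highest was vit-6 at 3301, followed by vit-2 at 1816, vit-5 at 1353, vit-4 at 679, vit-3 at 657 and vit-1 at 404. Their transcripts are long, and weighted by exon length their share was 2.99%, behind only ribosomal proteins and cuticle collagens. The close copies among vit-3, vit-4 and vit-5 can share reads, so their split is uncertain. The intestine list had a median of 210, and vit-6, mtl-2 (2159), a metallothionein, and vit-2 were its highest. The terminal intestinal regulators were lower, with elt-2 at 19.4 and elt-7 at 12.2, and the lowest were pgp-1 (3.05), ftn-1 (1.99) and end-3 (0.235).

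Families of lipid handling and digestion, many of them used in the intestine, ranged from the 9th to the 26th place by summed FPKM. Lipid-binding proteins, the 9th, held 1.01% of the sum, and 2 members, far-2 (6615) and far-1 (2765), held over 50% of it; both are secreted proteins that bind fatty acids and retinol. The next, lbp-6 (1836), is an intracellular fatty acid binding protein, and far-4 was lowest at 0.256. Among enzymes, acdh-1 (2187), an acyl-CoA dehydrogenase used as a sensor of propionate and vitamin B12 state, and ech-6 (1523) led the acyl-CoA family, and elo-6 (871), elo-1 (669) and fat-2 (499.5) the elongases and desaturases. In the S-adenosylmethionine cycle, ahcy-1, which clears S-adenosylhomocysteine, was at 3589 against 861 for pmt-2 and 499.2 for sams-1. The lysosomal and digestive hydrolases held 0.531%, led by the aspartyl protease asp-1 (1607), the acid phosphatase pho-11 (888) and asp-3 (680.2), while asp-9 was at 0.281. Of the 20 kept vacuolar ATPase subunits, 17 were at 100 or more, and the range ran from vha-10 (1112) down to vha-7 (23.8).

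Antimicrobial and secreted families were each carried by a few members. Saposin-like proteins held 0.846%, and spp-5 (5116) and spp-14 (3809) held over 50% of that against a family median of 35.1. The share was 0.241% with a locus span of at least 500 nt and 0.373% weighted by exon length. Lysozymes held 0.237%, most of it in ilys-5 (2184), then lys-4 (748) and lys-1 (353). The caenacins and antimicrobial peptides were led by nlp-33 (1839), fipr-21 (1613) and cnc-8 (1120.3), and 35 of 44 kept members (79.5%) were at 1 or more, against 84.2% of all kept rows. Their share was 0.601%, or 0.182% with a locus span of at least 500 nt and 0.232% weighted by exon length. C-type lectins, by far the largest of these families with 266 genes, held only 0.283%: 156 were kept, 98 of them (62.8%) were at 1 or more against 84.2% of all kept rows, the median was 2.16, and clec-63 (679), clec-47 (484) and clec-209 (Y19D10A.9, 389) led. Transthyretin-like proteins were led by ttr-15 (1947), ttr-16 (1136) and ttr-2 (693), with ttr-52 at 0.359. Galectins, sugar-binding lectins, were high for a small family, with a median of 200 and lec-6 (1171) on top.

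Chaperones held 1.17%, and all 76 kept members were above 1. Constitutive members led: the cyclophilin cyn-7 (1948), the Hsc70 hsp-1 (1757) and calreticulin, crt-1 (1446). The small heat shock genes of the hsp-16 group, known for induction by stress, were not at 0: hsp-16.11 was at 600.5 and the lowest, hsp-16.2, at 61.7. The hsp-16 genes are paired near-copies, so the split among them is uncertain. In the chaperonin, cct-5 was highest at 324 and cct-8 lowest at 156 of the 7 kept subunits. Proteasome subunits were even, with 29 of 31 at 100 or more and none above pas-3 (280.4).

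Histones were low for proteins made in such amounts. Of 78 kept genes, 68 (87.2%, against 84.2% of all kept rows) were at 1 or more but the median was 6.63. The highest were htz-1 (437), the H2A.Z variant, his-37 (329) and his-35 (279). The replication-independent H3.3 and H2A.Z variants had a median of 129 over 6 genes. The group was split, with 3 at 100 or more and his-69 lowest at 0.438. Messages of the replication-dependent histones end without a poly(A) tail in most animals, and the labels do not say whether poly(A) RNA was selected. Whether this bears on the histone levels was not tested. Replicated histone genes are near-identical, so single values are uncertain.

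Neuronal genes were detected at modest levels. The list of genes used by all neurons had a median of 23.9, with snb-1 (157), the synaptobrevin of synaptic vesicles, sbt-1 (79.4) and pgal-1 (57.7) highest and unc-31 (2.42), unc-10 (2.38) and rgef-1 (2.12) lowest. All 20 were above 1. The list by transmitter stood at 2.50: tbh-1 (53.8) and tdc-1 (32.1), enzymes of octopamine and tyramine synthesis, and bas-1 (25.7) were above the rest, and the dopamine enzyme cat-2 (0.676), the serotonin transporter mod-5 (0.625) and the serotonin enzyme tph-1 (0.388) were under 1. As background, tdc-1 and tbh-1 are also used in cells of the gonad. The touch receptor neuron list, made of mec genes, had a median of 5.29. Its highest were mec-17 (61.1), mec-12 and mec-5 (39.5), and its lowest mec-6 (1.58), mec-4 (0.969) and mec-14 (0.229). Whether these transcripts came from touch receptor neurons or from other cells was not tested. In the list for ciliated sensory neurons, with a median of 0.763, 5 of 18 genes were at 1 or more, led by daf-19 (3.33), the ciliogenic RFX factor, osm-1 (1.93) and che-13 (1.80), and the channel genes tax-4 (0.104) and tax-2 (0.098) were lowest.

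Neuropeptide genes were higher than the receptors. FMRFamide-like peptides had 30 kept genes of 31, all at 1 or more, with a median of 21.5, led by flp-28 (95.2), flp-22 (53.6) and flp-12 (50.5). Their spread was small, and 13 of the 30 lie on the X chromosome. Other neuropeptide-like genes had a median of 13.6 over kept members, with nlp-24 (1571), nlp-26 (537) and nlp-40 (355) far above it. A member with status FAIL that was not kept, nlp-36, was at 909. The share of these genes was 0.240%, or 0.385% over coding rows of any status with at least 300 nt of exon. Insulin-like peptides had a median of 4.12, led by ins-27 (118.9), ins-29 (43.98) and ins-28 (23.4), and 8 of the 40 in the table were at 0. Receptor subunits for acetylcholine, GABA and glutamate had 56 of 90 kept genes (62.2%) at 1 or more, against 84.2% of all kept rows, and a median of 1.79, and lgc-34 (35.5) was highest. Potassium channels had a median of 2.74, led by twk-18 (31.96), a channel of body wall muscle.

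The chemoreceptors were the family with the lowest median and the smallest share of members at 1 or more. These receptors for odours and tastes form the largest family of the genome, and each is typically used in a few sensory neurons. Of 1633 in the table, 1025 were listed at 0 and 166 were kept, of which 30 (18.1%) were at 1 or more, against 84.2% of all kept rows. The kept members summed to 197 FPKM, or 0.0128% of the library, with a median of 0.262. Of the 1467 not kept, the highest was at 0.229, so no strongly listed receptor was lost to the rule. Only 7 reached 5, and they came from different name groups: srr-4 at 33.7, str-176 at 22.3, srh-237 at 16.2, srv-1 at 16.2, srbc-15 at 14.3, srw-86 at 10.8 and sri-40 at 7.19. The locus of srv-1 overlaps another row. The diacetyl receptor odr-10 was at 1.12.

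Guanylate cyclases, many of them sensory, were next, with 17 of 34 kept and 4 of these (23.5%) at 1 or more, against 84.2% of all kept rows. They were dominated by gcy-28 (47.9) and gcy-12 (25.4), followed by gcy-11 at 1.32. Globins were all kept, with 26 of 34 (76.5%) at 1 or more, a share not far from the 84.2% of all kept rows. They summed to only 126.2 FPKM, led by glb-1 (40.04), glb-26 (11.2) and glb-18 (6.98). At 0.00821% and 0.00541% of the sum, globins and guanylate cyclases were the families with the smallest sums.

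Large regulatory families had medians below that of all kept rows, 11.98. Of 289 nuclear hormone receptors, 214 were kept and 176 of them (82.2%) were at 1 or more, against the 84.2% of all kept rows. Their median was 4.04. The highest of the 75 not kept was at 0.213, so 176 is also the number at 1 or more among all 289. The 3 highest were nhr-114 (176), nhr-68 (106) and nhr-97 (77.2), and nhr-114 and nhr-68 are known from vitamin B12 and propionate metabolism. Homeobox factors had a median of 2.24, led by ceh-44 (38.5), ceh-60 (33.8), a factor that acts on vitellogenin genes, and pal-1 (26.7). Factors of the bHLH kind had 17 of 32 kept members (53.1%) at 1 or more, below that share, led by mxl-3 (103.8), hif-1 (96.1), the hypoxia factor, and mdl-1 (51.3). F-box proteins, substrate adaptors of ubiquitin ligases, had 203 of 396 kept and 67.98% of those at 1 or more, also below it, and fbxa-72 (131) was the only one above 100. Cytochrome P450 enzymes had a median of 2.72, led by cyp-35A2 (62.3), cyp-14A5 (34.5) and cyp-35C1 (25.5), and glutathione S-transferases a median of 6.16, led by gst-10 (377), gst-1 (234) and gst-27 (218).

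**Figure D5:**
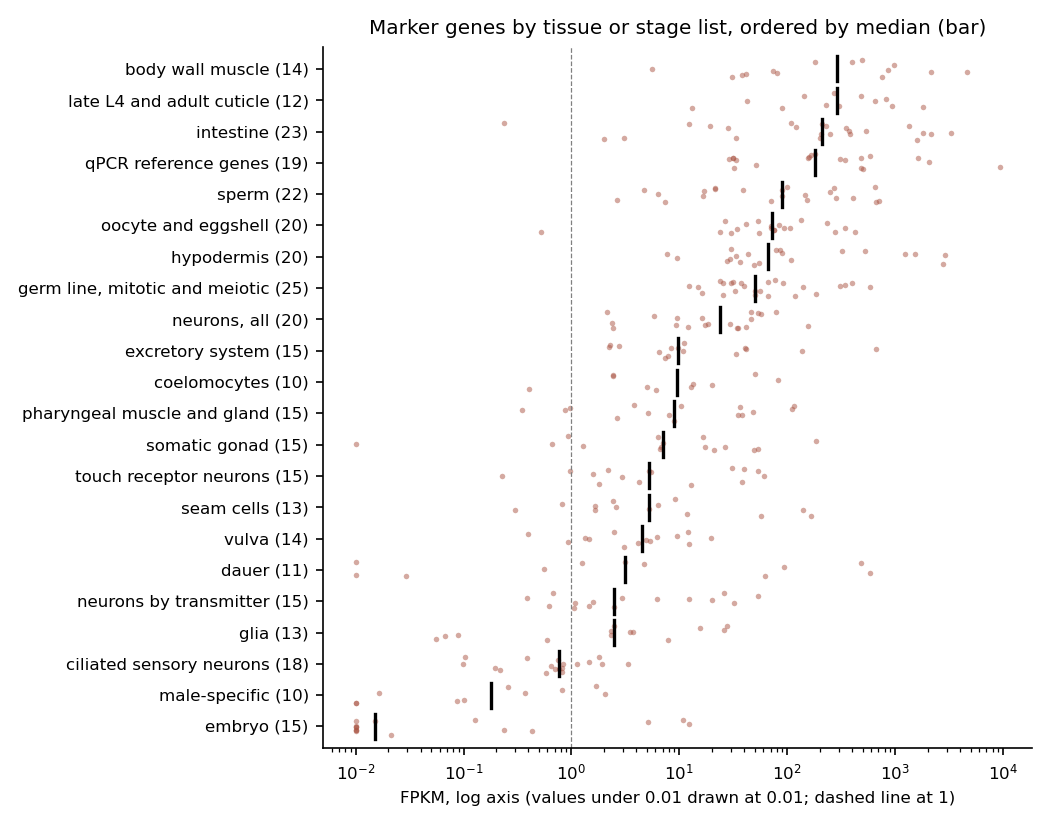
FPKM of each marker gene (points, log axis) in 22 tissue or stage lists, ordered by median (black bar); the number of genes matched follows each name, and genes outside the kept rows are included. Body wall muscle (291), late L4 and adult cuticle (289) and intestine (210) have the highest medians, and the male-specific (0.180) and embryo (0.0152) lists the lowest.

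The lists for small tissues of the L4 had low medians. The lists hold different kinds of genes, from abundant structural proteins to regulators, so a low median does not measure the size of a tissue. The somatic gonad list had a median of 7.04, with fln-1 (185), a filamin of the spermatheca, inx-8 (53.1) and let-502 (49.2) highest and cdh-3 (0.93), lag-2 (0.663) and ehn-3 (0) lowest. The vulva, which forms in L4, had a median of 4.52, from lip-1 (19.6), vab-23 (12.3) and lst-2 (12.1) to lin-12 (1.33), cdh-3 and nhr-67 (0.397). In the excretory system (median 9.62), vha-8 (661), aqp-8 (136) and lpr-3 (41.9) led, and vha-8 is a proton pump subunit that other tissues use. The list for coelomocytes, the scavenger cells of the body cavity, had a median of 9.47, led by cup-2 (82.6) and with eyg-1 (0.408) lowest. In that list cup-4 was at 12.9 and unc-122 at 2.44. How much of the cup-2 level came from coelomocytes was not tested. Glia had a median of 2.47, led by lin-26, which epidermis also expresses, lit-1 (25.9) and vab-9 (15.5), while hlh-17, mls-2 and delm-1 were under 0.1. Of the 10 male-specific genes, 2 reached 1, mab-3 (2.06) and ram-5 (1.70), and the neuronal genes pkd-2 (0.0166) and lov-1 (0.0073) were near 0. Genes commonly used as references for quantitative PCR had a median of 181 and ranged from eef-1A.1 and act-1 down to ama-1 (31.6), pmp-3 (31.3) and arp-6 (28.6).

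Chromosomes differed in their typical level. Kept protein-coding rows had a median of 20.5 on chromosome I, 20.1 on III, 15.8 on IV, 13.96 on II, 8.45 on V and 6.33 on X. Of these kept rows, the share at 1 or more was lowest on V (80.5%) and X (82.8%) and above 90% on I and III. The rules kept unequal parts of the chromosomes: 3225 of 4880 coding rows on V, 2665 of 3358 on II, 2261 of 2653 on X and 2455 of 2812 on I. Medians and shares are therefore of rows already chosen, and the order over all coding rows can differ. The X chromosome held 14.5% of kept protein-coding rows and 8.75% of their FPKM. Families with few or no kept genes on X included ribosomal proteins (2 of 75), both sperm families, proteasome subunits (0 of 31), tRNA synthetases (0 of 29) and meiotic chromosome proteins (0 of 38). Families with many there included vitellogenins (5 of 6), intermediate filaments (8 of 12), saposin-like proteins (9 of 25) and muscle contractile proteins (8 of 28).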

How the data were processed

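The authors deposited FPKM in 2 tables, per the file headers, with a status and a locus for each row. Tools named by the submitters' processing notes, without saying what each did, are Cuffdiff, Cufflinks (1.3.0), TopHat (1.3.1), Bowtie2 (2.0.2), SAMtools (0.1.16) and FastQC. No source used here gives the build, and no coordinates are printed.

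Kept rows were summed by family and by list with Python (3.11.15) and pandas (2.3.3); no value was transformed and no test was run. Sums were checked on simulated data with known shares. Symbols came from the files or, where missing, from Ensembl release 115, matched by sequence name for 44880 rows, which also gave biotypes and the exon length of the longest transcript. Names of mitochondrial genes came from RefSeq. A gene counted in the first family that took its name. The FPKM of a transcript shorter than a sequenced fragment rests on a steep length correction, and a few abundant RNAs lower all other values. The status rule left out 414 rows with FAIL in both tables, which summed to 97613 FPKM, 6.35% of the kept sum. The span rule left out 285 rows, among them rrn-2.1 (61850) and K08D8.11 (58839).

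Members, families and lists were chosen with earlier results of these data known. Genes named were the 30 highest rows, the 3 highest and the lowest kept member of each family, members at FPKM of at least 5 in families with under 20% at 1 or more, and the 3 highest and 3 lowest of each list, which includes genes outside the kept rows; not all are printed. Subgroups and other genes named were chosen after their values were seen. Alternatives were other status rules, span and exon minimums, loci that overlap no other, coding rows, other floors, a sum without the 10 highest rows, and weighting by exon length. Coding rows of any status with at least 300 nt of exon were added after seeing the data.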

Additional observations from a re-analysis of the deposited data

How the results depend on the processing

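An alternative was taken as the same when it lay within 1.5 times of the reported value. Ribosomal proteins were first and cuticle collagens second under all 10 alternatives. Weighting by exon length moved most: ribosomal proteins held 13.004%, vitellogenins 2.99%, muscle contractile proteins 2.38% and major sperm proteins 0.804%, and 441 rows held 50% of the sum. With it, 42 of 62 family shares moved, 35 of them higher. A locus span of at least 500 nt moved 4 shares, all lower: major sperm proteins fell to 0.311%, other sperm proteins to 0.347%, saposin-like proteins to 0.241% and caenacins with antimicrobial peptides to 0.182%. With all rows whatever their status, 31335 rows entered and 46.5% were at FPKM of at least 1. Of the other alternatives, 5 moved no family share, and loci that overlap no other moved 5. With 1 library of unknown depth, neither an error nor the fragments behind the levels of the lowest families can be given. No paired analysis was possible because the wild-type group has 1 library and no test was run.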

Other observations

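Outside the families, the named classes of 5 or more kept genes with the largest sums, chosen after their values were seen, were led by dct, whose 12 genes held 0.863% of the sum, nearly all of it dct-16 (12516). The rbm class held 0.441%, most of it rbm-3.2 (4820). Proteins of the mitochondrial ribosome were even and far below those of the cytoplasm, with medians of 70.8 over 41 mrpl genes and 78.9 over 28 mrps genes. Of the pud class, 6 genes had a median of 548, and 18 nspc genes one of 160. Protein-coding genes known only by a sequence name made up 7014 kept rows and 17.8% of the sum, with a median of 9.59.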
